A study of Mus musculus with 64 samples.

Results

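The hypothalamus of saline-injected mice was compared between mice killed 3 h and mice killed 4 weeks after the injection. The comparison holds 15 of the 64 RNA sequencing libraries of the study, chosen by their labels. There were 7 libraries at 3 h and 8 at 4 weeks, each from a different mouse. Replicate 2 at 3 h was left out because it held 211111 counted reads, under the minimum of 1000000. All of the mice were group-housed male C57BL/6J on chow. They received a single intraperitoneal injection of isotonic saline at 10 weeks of age, after sham injections of saline on the preceding days as the study's methods describe. The whole hypothalamus was dissected 4 h after light onset at both time points. No psilocybin was given to these mice, and the study used them as the vehicle controls of psilocybin-treated mice. The 3 h mice were handled and injected on the day of harvest and were also about 4 weeks younger at harvest. Injection, age and day of harvest cannot be told apart.

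An injection is a mild stressor. Handling activates the hypothalamic-pituitary-adrenal axis, in which Crh from the paraventricular nucleus releases corticotropin from the pituitary and corticotropin releases corticosterone from the adrenal cortex. Corticosterone enters the brain and binds the glucocorticoid receptor, a transcription factor that switches on genes such as Fkbp5, Sgk1 and Tsc22d3 within hours and feeds back on Crh. Immediate early genes such as Fos follow neuronal activity, and heat shock and endoplasmic reticulum (ER) chaperone genes follow protein folding load.

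Counted reads per library lay between 12793712 and 23299770 at 3 h (median 15539490) and between 8061033 and 33947174 at 4 weeks (median 17719408.5). Markers of the hypothalamus were present in each library. Hcrt and Pmch, the orexin and melanin-concentrating hormone precursors, had medians of 32.9 and 139 CPM (counts scaled to library size) at 3 h and of 36.3 and 122 CPM at 4 weeks. The summed CPM of 20 hypothalamus markers lay between 748 and 1165 at 3 h and between 613 and 990 at 4 weeks. A few libraries stood apart in markers of neighbouring tissue. Replicate 3 at 4 weeks had 1350 CPM over 12 choroid plexus markers, against 84.3 to 162 CPM in the other 14 libraries. Replicate 1 at 4 weeks had 598 CPM over 6 pituitary markers, against 214 to 305 CPM in the others. Replicate 6 of both groups had 834 and 846 CPM over 15 striatum markers, against 316 to 518 CPM in the others. Calls of named genes that were lost without these 4 libraries are stated with each gene. In bulk tissue, fewer cells of a type and less RNA per cell cannot be told apart.

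Of 18971 genes tested, 130 differed between 3 h and 4 weeks (0.685%, edgeR quasi-likelihood test, Benjamini-Hochberg adjusted p under 0.05, referred to as called). Of these, 99 were higher at 3 h (0.522%) and 31 lower (0.163%), and 1535 genes had an unadjusted p under 0.05. The median log2 fold change of all genes tested was 0.0022. Called genes that were higher had a median log2 fold change of 0.44, and 13 of them rose by at least 1 on the log2 scale. Called genes that were lower had a median size of 0.60 on this scale. Without the 4 libraries that stood apart, 56 genes were called, 45 higher and 11 lower. Within extraction pool A 11 genes were called, all higher, and within pool B 84, of which 65 were higher. Other choices gave more, with 661 genes called on the 15 libraries alone (399 higher and 262 lower) and 1120 by voom with quality weights (714 higher and 406 lower). Leaving out replicate 4 at 3 h gave 67 called genes, and leaving out replicate 7 at 3 h gave 76.

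Among the 22 gene lists, the glucocorticoid targets held the most called genes. The lists and their members were chosen with earlier results of these data known, so these counts are not an independent test. Of 30 listed genes, 9 rose at 3 h and none fell. The risen genes were Tsc22d3, Cdkn1a, Hif3a, Sgk1, Plin4, Cables1, Zbtb16, Fkbp5 and Ddit4. The median log2 fold change over the list was 0.33, and 29 of 30 members had a positive value. Without the 4 libraries that stood apart, 9 members were again called and the list median was 0.50. Fitted within the extraction pools, 3 members were called in pool A and 4 in pool B, and the list medians were 0.27 and 0.44. Voom called 20 members and edgeR on the 15 libraries alone 18 of the 29 it tested, all higher.

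The promoters of 3 risen genes are shown because each holds a short motif known to bind a signal-responsive transcription factor. The sequences are RefSeq windows of GRCm38.p6, from 250 bases before to 50 bases after an annotated start, read 5′ to 3′ on the gene's strand. In the window at chr10:21993640-21993939 (plus strand), 1 of several annotated starts of Sgk1, the capitals mark glucocorticoid receptor half-sites (TGTTCT on either strand). A pair of them forms a complete element, AGAACA and TGTTCT separated by any 3 bases.
Sgk1: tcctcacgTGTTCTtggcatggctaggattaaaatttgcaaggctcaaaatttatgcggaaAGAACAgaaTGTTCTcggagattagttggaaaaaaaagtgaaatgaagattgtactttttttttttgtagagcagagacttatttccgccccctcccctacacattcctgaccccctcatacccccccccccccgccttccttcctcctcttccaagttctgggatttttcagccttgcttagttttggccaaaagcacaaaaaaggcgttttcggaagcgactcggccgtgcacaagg
In the window of Hsph1 at chr5:149636266-149636565 (minus strand), the capitals mark a heat shock element, alternating GAA and TTC blocks with any 2 bases between them, read on either strand.
Hsph1: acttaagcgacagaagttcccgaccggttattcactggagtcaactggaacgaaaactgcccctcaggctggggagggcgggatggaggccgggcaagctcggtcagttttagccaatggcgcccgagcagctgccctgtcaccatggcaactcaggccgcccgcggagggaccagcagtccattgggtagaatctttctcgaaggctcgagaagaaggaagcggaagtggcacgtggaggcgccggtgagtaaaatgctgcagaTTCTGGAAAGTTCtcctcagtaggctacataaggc
In the window of Dio2 at chr12:90738989-90739288 (minus strand), the capitals mark a cyclic AMP response element (TGACGTCA).
Dio2: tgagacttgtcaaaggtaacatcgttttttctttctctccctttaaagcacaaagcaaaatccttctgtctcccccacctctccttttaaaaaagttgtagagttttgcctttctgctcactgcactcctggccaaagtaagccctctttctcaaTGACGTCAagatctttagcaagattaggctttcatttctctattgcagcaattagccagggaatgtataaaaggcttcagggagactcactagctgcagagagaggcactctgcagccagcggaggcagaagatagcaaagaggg
Of 32851 promoter windows in the table, 3 held the complete glucocorticoid element (0.00913%), 6233 a half-site (19%, the complete elements included), 198 the heat shock element (0.603%) and 588 the cyclic AMP element (1.79%). The genes higher at 3 h had 119 windows. A complete glucocorticoid element lay in 1 of them, a half-site in 22 (18.5%), the heat shock element in 2 and the cyclic AMP element in 5. Of the 15 windows of called glucocorticoid targets, 1 held the complete element and 4 a half-site, in Sgk1 and Tsc22d3 only. Of the 5 windows of called higher heat shock genes, 2 held the heat shock element. The 2 heat shock windows are overlapping windows of Hsph1 that hold the same element, so that they count 1 site of 1 gene. A match is a run of letters in a window, and the binding of a factor was not measured.

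Tsc22d3 (GILZ, a glucocorticoid-induced repressor of inflammatory signalling; ENSMUSG00000031431.13, GRCm38 chrX:140539528-140600659) lay between 103 and 169 CPM at 3 h (median 155) and between 65.6 and 82.4 CPM at 4 weeks (median 75.2). The groups did not overlap, which was so for 127 of all genes tested in this direction (0.669%) and for 36 in the other (0.19%). The log2 fold change was 0.90 ± 0.11 (SE; edgeR adjusted p = 1e-07).

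Sgk1, a kinase that regulates ion channels and transporters (ENSMUSG00000019970.15, chr10:21882184-21999893), lay between 39.7 and 99.0 CPM at 3 h (median 58.1) and between 25.7 and 45.9 CPM at 4 weeks (median 29.0). The groups overlapped through replicate 3 at 4 weeks, which was the highest of its group, with the others at 32.5 CPM or less. The log2 fold change was 1.16 ± 0.17 (edgeR adjusted p = 9.8e-06). Sgk1 is also transcribed in oligodendrocytes. The 20 myelin and oligodendrocyte markers summed to between 9204 and 13168 CPM at 3 h and between 7303 and 11275 CPM at 4 weeks, none of them was called, and the part of this difference in the Sgk1 result was not tested.

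Fkbp5, a co-chaperone that lowers the affinity of the glucocorticoid receptor for its ligand (ENSMUSG00000024222.17, chr17:28399094-28517524), lay between 33.4 and 55.5 CPM at 3 h (median 41.9) and between 26.8 and 32.9 CPM at 4 weeks (median 28.9). Each 3 h library lay above each 4-week library. The log2 fold change was 0.60 ± 0.11 (edgeR adjusted p = 0.0015). Its locus is overlapped by annotated genes on both strands, whose reads may be shared.

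Cdkn1a (p21, a cell cycle inhibitor) lay between 11.3 and 29.6 CPM at 3 h (median 17.5) and between 5.11 and 8.96 CPM at 4 weeks (median 7.47), with a log2 fold change of 1.22 ± 0.16. Hif3a, a member of the hypoxia-inducible factor family, lay between 5.91 and 14.2 CPM at 3 h (median 9.65) and between 1.93 and 4.91 CPM at 4 weeks (median 2.70), with a log2 fold change of 1.77 ± 0.24. In neither gene did the groups overlap, and edgeR gave adjusted p = 4.2e-07 for Cdkn1a and adjusted p = 2.1e-06 for Hif3a. Zbtb16, a transcriptional repressor, lay between 13.5 and 35.6 CPM at 3 h and between 6.52 and 11.2 CPM at 4 weeks, with a log2 fold change of 1.38 ± 0.21 (edgeR adjusted p = 2.4e-05).

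Plin4, which coats lipid droplets, had the largest fold among the risen genes with a mean of at least 1 CPM. It lay between 4.81 and 43.9 CPM at 3 h (median 9.85) and between 1.89 and 4.02 CPM at 4 weeks (median 2.69). Replicate 7 at 3 h was far above the rest of its group, which reached 13.5 CPM, and the groups did not overlap. The log2 fold change was 2.28 ± 0.33 (edgeR adjusted p = 9.8e-06). Its lowest value under the alternatives run was 1.69, and the call was lost in pool B alone. Hdgfl2 overlaps Plin4 on the opposite strand. Cables1, an adaptor of cyclin-dependent kinases, lay between 29.6 and 45.8 CPM at 3 h and between 22.1 and 28.1 CPM at 4 weeks, again without overlap.

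The remaining 21 glucocorticoid targets were not called in the edgeR fit over all groups. They included Glul (glutamine synthetase), with medians of 1767 CPM at 3 h and 1378 CPM at 4 weeks (edgeR adjusted p = 0.15), and Klf9, with 133 and 109 CPM (edgeR adjusted p = 0.20). Per1, which is both a clock gene and a glucocorticoid target, lay between 56.9 and 62.8 CPM at 3 h and between 42.1 and 54.4 CPM at 4 weeks. The groups of Per1 did not overlap, but edgeR gave a log2 fold change of 0.26 ± 0.12 with adjusted p = 0.57. Fitted on the 15 libraries alone, Per1 was called (edgeR adjusted p = 0.011). Lcn2 was the only member with a negative log2 fold change (-1.03, edgeR adjusted p = 0.97), although its median was 1.90 CPM at 3 h and 0.236 CPM at 4 weeks.

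**Figure D1:**
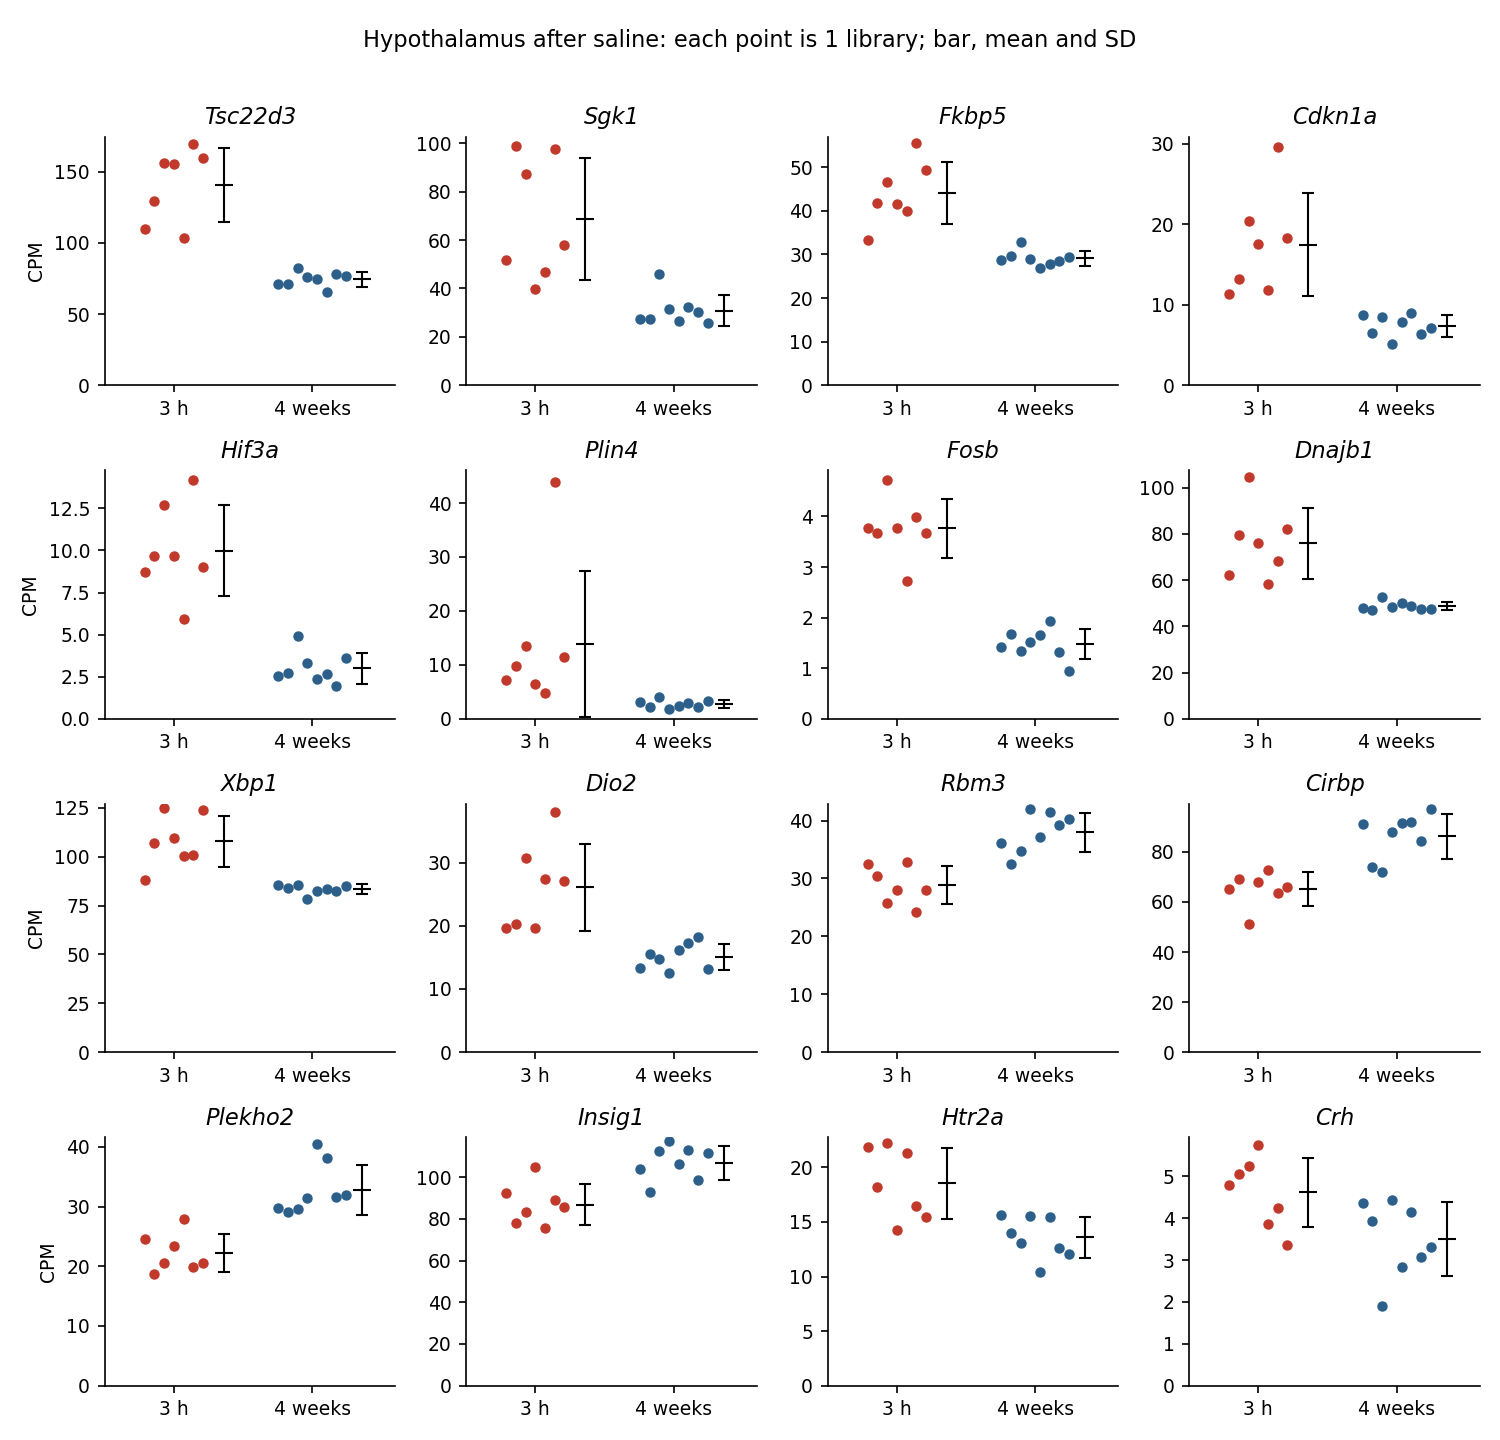
CPM (vertical axes, each from 0) of 16 genes in the 7 hypothalamus saline libraries at 3 h (red) and the 8 at 4 weeks (blue). Each point is 1 library, and the bar beside each group gives the mean and SD. Points of Tsc22d3, Fkbp5, Cdkn1a, Hif3a, Plin4, Fosb, Dnajb1, Xbp1 and Dio2 at 3 h lie above each 4-week point, those of Plekho2 lie below, and those of Htr2a and Crh overlap between groups.

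To see how evenly the mice showed this pattern, the median over a list of the log2 difference from the 4-week mean was taken in each library. For glucocorticoid targets this median lay between 0.17 (replicate 1) and 0.73 (replicate 7) at 3 h and between -0.07 and 0.09 at 4 weeks, so that the groups did not overlap. Replicate 7, which was also highest in Plin4 and in Hr, stood above the next 3 h library at 0.43. The order of the 3 h libraries differed between lists. Replicate 4 was highest for heat shock genes (0.41) and ER stress genes (0.28), while replicate 1 was lowest for both (0.06 and 0.01). For heat shock genes the groups did not overlap either, though narrowly, at 0.056 or more at 3 h and 0.043 or less at 4 weeks.

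**Figure D2:**
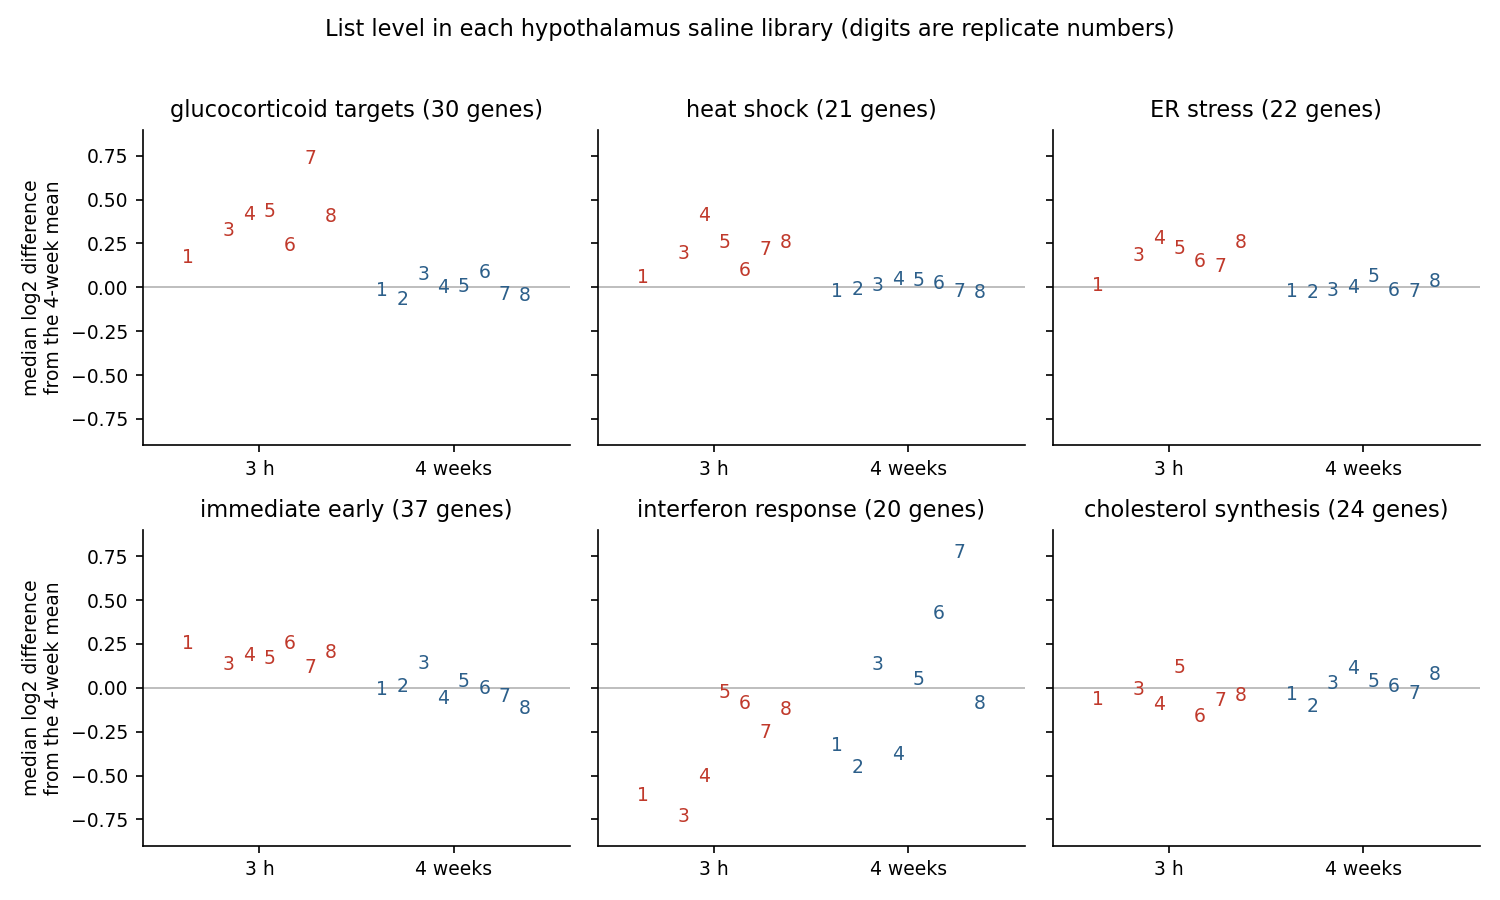
Median over the genes of a list of the log2(CPM + 0.5) difference from the mean of the 4-week libraries (vertical axis), for 6 lists in the hypothalamus saline libraries at 3 h (red) and 4 weeks (blue). Each digit is the replicate number of 1 library. Glucocorticoid targets separate the groups with replicate 7 at 3 h highest (0.73), and heat shock genes separate them narrowly. Interferon response genes range from -0.45 to 0.77 among the 4-week libraries.

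Among other called genes, Banp had the smallest p. It encodes a nuclear matrix protein that binds CGCG motifs at promoters. Banp (ENSMUSG00000025316.16, chr8:121949750-122026177) lay between 16.3 and 30.98 CPM at 3 h (median 26.1) and between 8.81 and 14.7 CPM at 4 weeks (median 11.3). The groups did not overlap, and the lowest 3 h value came from replicate 1, with the others at 24.8 CPM or more. The log2 fold change was 1.10 ± 0.11 (edgeR adjusted p = 1.6e-10). Annotated genes overlap Banp on both strands.

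Mfsd2a, the transporter of lysophosphatidylcholine with docosahexaenoic acid at the blood-brain barrier, lay between 23.6 and 44.7 CPM at 3 h (median 27.1) and between 13.8 and 17.4 CPM at 4 weeks (median 15.1). There was no overlap, and the log2 fold change was 0.96 ± 0.12 (edgeR adjusted p = 2.7e-07). Of 15 endothelium markers 1, Ly6c1, was called higher, and the summed level of the list lay between 303 and 512 CPM at 3 h and between 266 and 448 CPM at 4 weeks. The part of that level in the Mfsd2a result was not tested.

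Gpt2, a mitochondrial alanine aminotransferase, had a median of 83.3 CPM at 3 h and 55.0 CPM at 4 weeks (log2 fold change 0.55 ± 0.08), without overlap. Kcnn2, a small-conductance calcium-activated potassium channel, had medians of 24.5 and 15.8 CPM (log2 fold change 0.55 ± 0.08). Its ranges, 18.3 to 26.7 CPM and 13.8 to 19.4 CPM, overlapped slightly. Klf15, a transcription factor of amino acid and lipid metabolism and the 1 called gene of 18 clock output genes, had medians of 34.8 and 21.0 CPM (log2 fold change 0.69 ± 0.11, edgeR adjusted p = 8.2e-05). In that list voom called 3 higher, and edgeR on the 15 libraries alone 3 higher and 1 lower.

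Myh4, a fast skeletal muscle myosin, ranked among the largest folds with a log2 fold change of 2.07 ± 0.46 (edgeR adjusted p = 0.010). It lay between 0.652 and 6.18 CPM at 3 h (median 1.63) and between 0.241 and 0.973 CPM at 4 weeks (median 0.590). The groups overlapped, and replicates 4 and 7 at 3 h, at 5.91 and 6.18 CPM, exceeded the other 3 h libraries, which reached 1.85 CPM. Myh4 was not called without either of these replicates, nor by edgeR on the 15 libraries alone or on the hypothalamus libraries alone.

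Immediate early genes were called in 2 of 37 cases, both higher. The list median was 0.20, with 27 positive and 10 negative members. Voom called 5 higher and edgeR on the 15 libraries alone 6 of the 36 it tested. Fosb (chr7:19302696-19310051), whose product pairs with Jun proteins in AP-1, lay between 2.73 and 4.73 CPM at 3 h (median 3.77) and between 0.944 and 1.93 CPM at 4 weeks (median 1.47). The groups were apart, and the log2 fold change was 1.37 ± 0.21 (edgeR adjusted p = 2.4e-05). Fosl2, another AP-1 member, lay between 15.1 and 23.6 CPM at 3 h and between 9.31 and 14.9 CPM at 4 weeks, with a log2 fold change of 0.70 ± 0.15 (edgeR adjusted p = 0.0065). Fos itself lay between 7.38 and 16.2 CPM at 3 h (median 11.4) and between 4.30 and 17.8 CPM at 4 weeks (median 6.66). The 4-week maximum of Fos was in replicate 3, with the others at 9.64 CPM or less, and its log2 fold change of 0.63 ± 0.37 was not called (edgeR adjusted p = 0.76). Egr1 was not called either, at medians of 33.2 and 20.1 CPM (log2 fold change 0.70, edgeR adjusted p = 0.18).

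The heat shock list held changes in both directions, 3 higher and 2 lower of 21, with a median of 0.23 and 19 positive members. Both voom and edgeR on the 15 libraries alone called 12 higher and 2 lower. The risen genes encode chaperones. Dnajb1, the HSP40 partner of HSP70, lay between 58.5 and 105 CPM at 3 h (median 75.9) and between 47.0 and 52.7 CPM at 4 weeks (median 48.1), without overlap (log2 fold change 0.64 ± 0.11, edgeR adjusted p = 0.00028). Hsph1, an HSP110 nucleotide exchange factor, lay between 396 and 553 CPM and between 337 and 404 CPM, with a slight overlap (log2 fold change 0.33 ± 0.07, edgeR adjusted p = 0.0047). Hspa1b, an inducible HSP70, lay between 2.14 and 7.61 CPM at 3 h and between 0.976 and 2.37 CPM at 4 weeks (log2 fold change 1.44 ± 0.31, edgeR adjusted p = 0.0073), and its call was lost without replicate 3 at 3 h. Hspa1a is a near-identical copy of Hspa1b whose reads can be shared, and it was not called (log2 fold change 0.79, edgeR adjusted p = 0.20).

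The lower members of the heat shock list, Rbm3 and Cirbp, encode RNA-binding proteins that are induced by mild cold, not by heat. Rbm3 (chrX:8138975-8145697) lay between 24.3 and 32.9 CPM at 3 h (median 28.0) and between 32.5 and 42.0 CPM at 4 weeks (median 38.2). Only the edges of the groups overlapped, and the log2 fold change was -0.40 ± 0.08 (edgeR adjusted p = 0.0041). Cirbp (chr10:80165985-80172786) lay between 51.2 and 72.6 CPM at 3 h (median 66.0) and between 71.8 and 97.0 CPM at 4 weeks (median 89.3), with a log2 fold change of -0.42 ± 0.10 (edgeR adjusted p = 0.026). The call of Cirbp was lost without replicate 4, 7 or 8 at 3 h or replicate 1, 4 or 8 at 4 weeks. Both genes were thus lower at 3 h than at 4 weeks, while the 3 chaperone genes above were higher. Without the 4 libraries that stood apart, 1 member of this list was called higher and 1 lower, and Hsph1, Hspa1b and Cirbp were not called.

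ER stress genes were called in 3 of 22 cases, all higher, with a list median of 0.18 and 21 positive members. Voom called 10 higher and edgeR on the 15 libraries alone 9. Xbp1, a transcription factor of the unfolded protein response, lay between 88.3 and 125 CPM at 3 h and between 78.3 and 85.7 CPM at 4 weeks, without overlap (log2 fold change 0.37 ± 0.08, edgeR adjusted p = 0.0047). Herpud1, which takes part in ER-associated degradation, had medians of 71.4 and 57.0 CPM. Dnajb11, a co-chaperone of the ER lumen, had medians of 49.4 and 40.5 CPM. Their groups did not overlap either, but edgeR gave adjusted p = 0.038 for Herpud1 and adjusted p = 0.039 for Dnajb11. Leaving out any 1 of the 15 libraries ended 1 or both of these calls, and without the 4 libraries that stood apart 1 member of the list was called.

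Of 15 thyroid hormone genes, 2 rose, and 3 were called higher by voom and by edgeR on the 15 libraries alone. Dio2, the deiodinase that activates thyroxine and is expressed in astrocytes and tanycytes, lay between 19.6 and 38.1 CPM at 3 h (median 27.0) and between 12.6 and 18.2 CPM at 4 weeks (median 15.1). The groups did not overlap (log2 fold change 0.76 ± 0.18, edgeR adjusted p = 0.017). Hr, a corepressor of the thyroid hormone receptor and itself a target of thyroid hormone, lay between 51.1 and 108 CPM at 3 h and between 39.5 and 48.9 CPM at 4 weeks (log2 fold change 0.63 ± 0.13, edgeR adjusted p = 0.0068). The call of Hr was lost without replicate 7 at 3 h, and that of Dio2 without replicate 4 or 7 at 3 h, replicate 8 at 4 weeks or the 4 libraries that stood apart. Within either extraction pool no member of the list was called. Ttr, a thyroxine carrier made in the choroid plexus, had a log2 fold change of -3.74 that was not called (edgeR adjusted p = 0.25), and DESeq2 called 1 member of the list lower beside 2 higher. Choroid plexus markers were highest in replicate 3 at 4 weeks, and their part in this value was not tested.

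**Figure D3:**
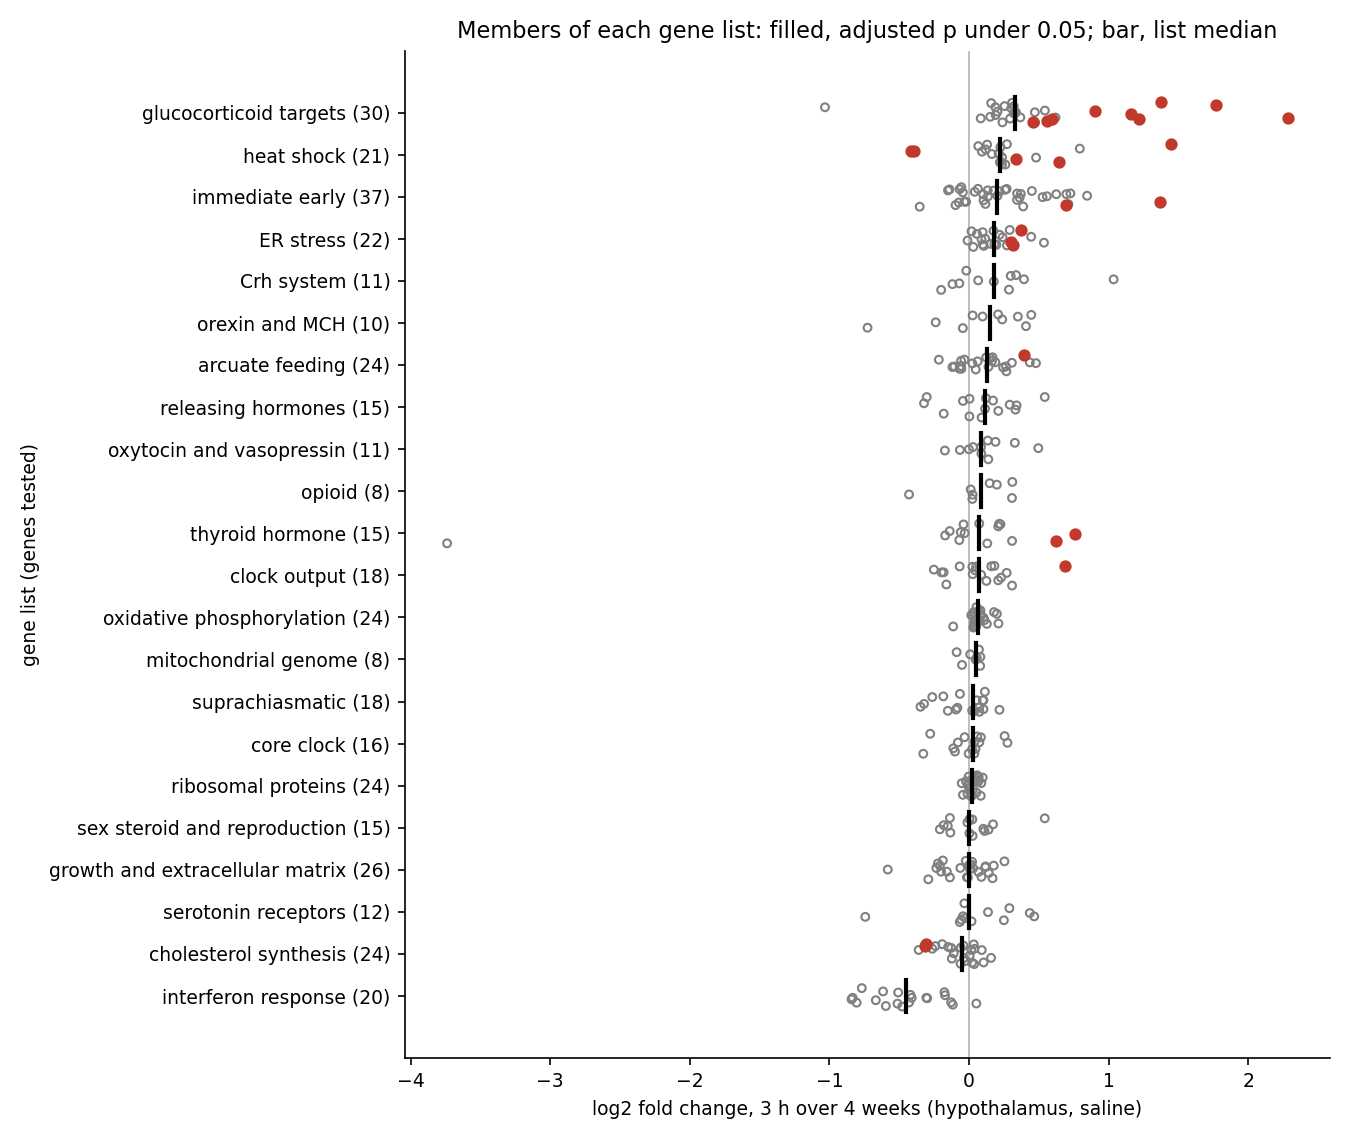
Log2 fold change at 3 h over 4 weeks (horizontal axis) of each tested member of 22 gene lists (vertical axis, number of genes tested in parentheses). Filled points have an edgeR adjusted p under 0.05, open points do not, and the black bar is the list median. Glucocorticoid targets have the highest median (0.33) and the most called members (9), and interferon response genes the lowest median (-0.45) with none.

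Genes lower at 3 h formed the smaller set. Mir9-3hg, the host transcript of a miR-9 precursor, had a median of 11.03 CPM at 3 h and 16.8 CPM at 4 weeks (log2 fold change -0.60 ± 0.11, edgeR adjusted p = 0.00071). Its ranges, 8.84 to 14.4 CPM and 13.7 to 22.2 CPM, overlapped slightly. Plekho2, a pleckstrin homology domain protein (chr9:65552698-65580040), lay between 18.7 and 27.9 CPM at 3 h and between 29.1 and 40.6 CPM at 4 weeks, without overlap (log2 fold change -0.57 ± 0.10, edgeR adjusted p = 0.00084).

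Zfp810 and Zkscan2, both zinc finger genes, had log2 fold changes of -0.47 and -0.50. Sytl2, a synaptotagmin-like Rab27 effector, was at -0.43, and Trmt11, a tRNA methyltransferase subunit, at -0.59. Creb5, a CRE-binding transcription factor, was at -0.69, and Cd180, a Toll-like receptor homologue of immune cells, at -0.74 with medians of 2.10 and 3.43 CPM. Cd180 lies within Mast4 on the opposite strand, and the calls of Cd180 and Creb5 were lost without replicate 4 at 3 h. That of Creb5 was also lost without the 4 libraries that stood apart. Oacyl, at medians of 0.514 and 1.16 CPM, had a log2 fold change of -1.14, and Lrrc29, at 1.42 and 2.56 CPM, one of -0.99. With the replicate number as a block, Lrrc29 was not called (edgeR adjusted p = 0.055), nor was it without replicate 4 or 8 at 3 h.

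The largest falls with a mean of at least 1 CPM rested on few libraries. Saa1, an acute-phase serum amyloid, was at 26.1 CPM in replicate 6 at 4 weeks and at 0.335 CPM or less in the other 7 libraries of that group. At 3 h Saa1 lay between 0 and 0.517 CPM. Its log2 fold change was -4.38 ± 1.12 (edgeR adjusted p = 0.042), and without replicate 6 at 4 weeks the gene failed the filter on low counts. The call was also lost with voom, with no filter on low counts and without any 1 of replicates 3 to 8 at 3 h. With the replicate number as a block, edgeR gave Saa1 an adjusted p of 0.70. Gpr151, a receptor known from the habenula, was at 20.4 and 34.8 CPM in replicates 2 and 7 at 4 weeks and at 4.57 CPM or less in the other 13 libraries. Its log2 fold change was -2.67 ± 0.70 (edgeR adjusted p = 0.048), the call was lost without either of these replicates and without any 3 h replicate, and the adjusted p was 0.23 with the replicate block. Neither Saa1 nor Gpr151 was called without the 4 libraries that stood apart.

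Of 24 cholesterol synthesis genes, 2 were lower and none higher, with a list median of -0.05. Voom called 6 lower and edgeR on the 15 libraries alone 4. Insig1, which holds the sterol sensor in the ER, lay between 75.4 and 105 CPM at 3 h and between 92.9 and 117 CPM at 4 weeks (log2 fold change -0.31 ± 0.07, edgeR adjusted p = 0.015), a call lost without replicate 3 or 6 at 3 h. Lss (lanosterol synthase) lay between 38.7 and 43.4 CPM and between 46.9 and 55.4 CPM, without overlap (log2 fold change -0.31 ± 0.08, edgeR adjusted p = 0.038). With the replicate block, Lss had an adjusted p of 0.087 and most single libraries left out ended its call. Without the 4 libraries that stood apart no member of the list was called.

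Interferon response genes had the lowest median of the 22 gene lists, -0.45, and 19 of 20 members were negative. None was called by edgeR or DESeq2, 2 were called lower by voom with quality weights, and 11 had an unadjusted p under 0.05 in edgeR, all lower. Oasl2, the member with the smallest p, lay between 3.18 and 8.46 CPM at 3 h (median 5.43) and between 3.95 and 22.8 CPM at 4 weeks (median 8.83). The groups overlapped, and replicate 7 at 4 weeks was highest (log2 fold change -0.80 ± 0.25, edgeR adjusted p = 0.15). Over the list, replicates 7 and 6 at 4 weeks stood at 0.77 and 0.43 and the other 4-week libraries between -0.45 and 0.13, which covered most of the 3 h range of -0.74 to -0.03. At 3 h the libraries of pool A (replicates 1 to 4) lay between -0.74 and -0.50 and those of pool B between -0.25 and -0.03. Of 15 microglia markers none was called, and their sums, 444 to 588 CPM and 478 to 643 CPM, overlapped.

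Few genes of the peptide systems of the hypothalamus were called, and the number depended on the fit. Crh, the releasing factor of the stress axis, lay between 3.36 and 5.75 CPM at 3 h (median 4.80) and between 1.90 and 4.44 CPM at 4 weeks (median 3.63), with a log2 fold change of 0.39 ± 0.20 (edgeR adjusted p = 0.64). No member of the Crh system list (11 genes) was called by DESeq2 or by edgeR over all groups, while 3 had an unadjusted p under 0.05, voom called 2 higher and 1 lower, and edgeR on the 15 libraries alone called 1 lower.

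Oxt lay between 98.4 and 249 CPM at 3 h and between 70.7 and 178 CPM at 4 weeks (log2 fold change 0.19 ± 0.44), and Avp between 95.0 and 299 CPM and between 56.9 and 248 CPM (log2 fold change -0.06 ± 0.39). Their ranges overlapped widely. The feeding peptides of the arcuate nucleus did so too, with log2 fold changes of 0.31 ± 0.30 for Agrp, 0.15 ± 0.21 for Npy and 0.02 ± 0.29 for Pomc. Bdnf, a growth factor that restrains feeding, was the 1 called gene of 24 in the arcuate feeding list, in which voom called 4 higher and edgeR on the 15 libraries alone 3. It lay between 14.96 and 20.7 CPM at 3 h and between 10.7 and 18.1 CPM at 4 weeks (log2 fold change 0.40 ± 0.09, edgeR adjusted p = 0.018). This call was lost without replicate 7 or 8 at 3 h or replicate 6 at 4 weeks, and no member was called without the 4 libraries that stood apart.

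Of the 12 serotonin receptors tested, none was called by DESeq2 or by edgeR over all groups, 3 had an unadjusted p under 0.05, and voom called 2 higher. Htr2a, the receptor through which psilocybin acts, lay between 14.3 and 22.2 CPM at 3 h (median 18.2) and between 10.4 and 15.6 CPM at 4 weeks (median 13.5). The groups overlapped slightly, with a log2 fold change of 0.47 ± 0.17 (edgeR adjusted p = 0.30). Htr1b had a log2 fold change of 0.44 ± 0.15 (edgeR adjusted p = 0.28). Fitted on the 15 libraries alone, edgeR called both, with adjusted p = 0.010 for Htr2a and 0.0071 for Htr1b.

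The core clock list (16 genes) had no member called by DESeq2 or by edgeR over all groups, 2 with an unadjusted p under 0.05 and 1 called by voom, with a median of 0.03. On the 15 libraries alone, edgeR called 2 of its members higher. Dbp lay between 23.4 and 41.5 CPM at 3 h and between 26.8 and 40.9 CPM at 4 weeks (log2 fold change -0.20 ± 0.14). Both time points were sampled at the same hour after light onset.

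In the remaining lists DESeq2 and edgeR over all groups called no gene. Those of oxytocin and vasopressin (11 genes, 1 with an unadjusted p under 0.05), orexin and MCH (10 genes, 3) and opioid signalling (8 genes, 0) had medians of 0.09, 0.15 and 0.09, and voom called 2, 1 and 1 of their members. On the 15 libraries alone, edgeR called 1 member of each. Hcrtr2, the orexin receptor 2, lay between 9.79 and 11.6 CPM at 3 h and between 6.81 and 8.94 CPM at 4 weeks, without overlap and without a call (log2 fold change 0.45 ± 0.18, edgeR adjusted p = 0.39), but with an adjusted p of 0.0031 when edgeR was fitted on the 15 libraries alone.

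Voom called none either, and no unadjusted p was under 0.05, in the lists of releasing hormones, suprachiasmatic genes, growth and extracellular matrix, sex steroids and reproduction, oxidative phosphorylation, the mitochondrial genome and ribosomal proteins. Their medians lay between -0.0027 and 0.12. On the 15 libraries alone, edgeR called 1 releasing hormone gene higher and none in the other 6 of these lists.

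Among 15 lists of cell type and tissue markers, each of 3 had 1 called member. These were Gpr17 among oligodendrocyte precursor markers, Ly6c1 among endothelium markers, and Dio2 among tanycyte markers. The other tanycyte markers mostly had negative values, with 14 of 18 members negative and a list median of -0.14. Their sums overlapped, at 513 to 763 CPM at 3 h and 527 to 749 CPM at 4 weeks. Gpr17, a receptor of differentiating oligodendrocyte precursors, lay between 88.1 and 107 CPM at 3 h and between 55.7 and 79.5 CPM at 4 weeks, without overlap (log2 fold change 0.49 ± 0.09, edgeR adjusted p = 0.0010). The precursor markers together summed to between 1218 and 1435 CPM at 3 h and between 1063 and 1302 CPM at 4 weeks.

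To see whether the time difference was shared by mice that received psilocybin, the same contrast was taken in the hypothalamus of 16 other mice given 3 mg/kg psilocybin. There, 141 genes were higher (0.743%) and 79 lower (0.416%) at 3 h. Of the 99 genes higher after saline, 97 had a positive log2 fold change after psilocybin and 58 were called higher, and of the 31 lower genes, 27 had a negative one and 8 were called lower. None was called in the opposite direction. Among all genes tested, 44.4% had a positive log2 fold change after psilocybin. Replicate 5 of the psilocybin group at 4 weeks had a weight of 0.0276 in the voom fit, the lowest of the hypothalamus libraries. Without it, 117 genes were higher and 33 lower after psilocybin, and the same 97 and 27 counts of shared sign were found, with 61 called higher and 8 called lower. The saline contrast itself then had 225 called genes of 18890 tested.

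Fkbp5 lay between 47.9 and 61.4 CPM at 3 h after psilocybin and between 27.2 and 32.5 CPM at 4 weeks, a log2 fold change of 0.88 ± 0.11 beside 0.60 after saline. Plin4 rose by 2.84 ± 0.33 on the log2 scale after psilocybin and by 2.28 after saline, and Sgk1 by 1.06 ± 0.16 and 1.16. The test of the difference between treatments, an interaction term in the same fit, called no gene of 18971 with edgeR, and neither DESeq2 nor voom called any. There were 999 genes with an unadjusted p under 0.05, and the smallest adjusted p was 0.90. The SE of this term was larger than that of the saline contrast, at 0.15 beside 0.11 for Tsc22d3 and 0.45 beside 0.33 for Plin4. The absence of calls therefore does not show that the time differences were equal. The smallest p values of this term under the naming rule belonged to Tph1, Ripply2 and Hnrnpm. Tph1 rested on replicate 3 of the saline group at 4 weeks, at 11.8 CPM with the other 7 at 0.222 CPM or less. Hnrnpm, a splicing factor, lay between 102 and 115 CPM at 3 h and between 88.0 and 99.6 CPM at 4 weeks after saline, and after psilocybin between 91.3 and 102 CPM and between 86.7 and 109 CPM. Its call in the saline contrast was lost without the 4 libraries that stood apart.

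**Figure D4:**
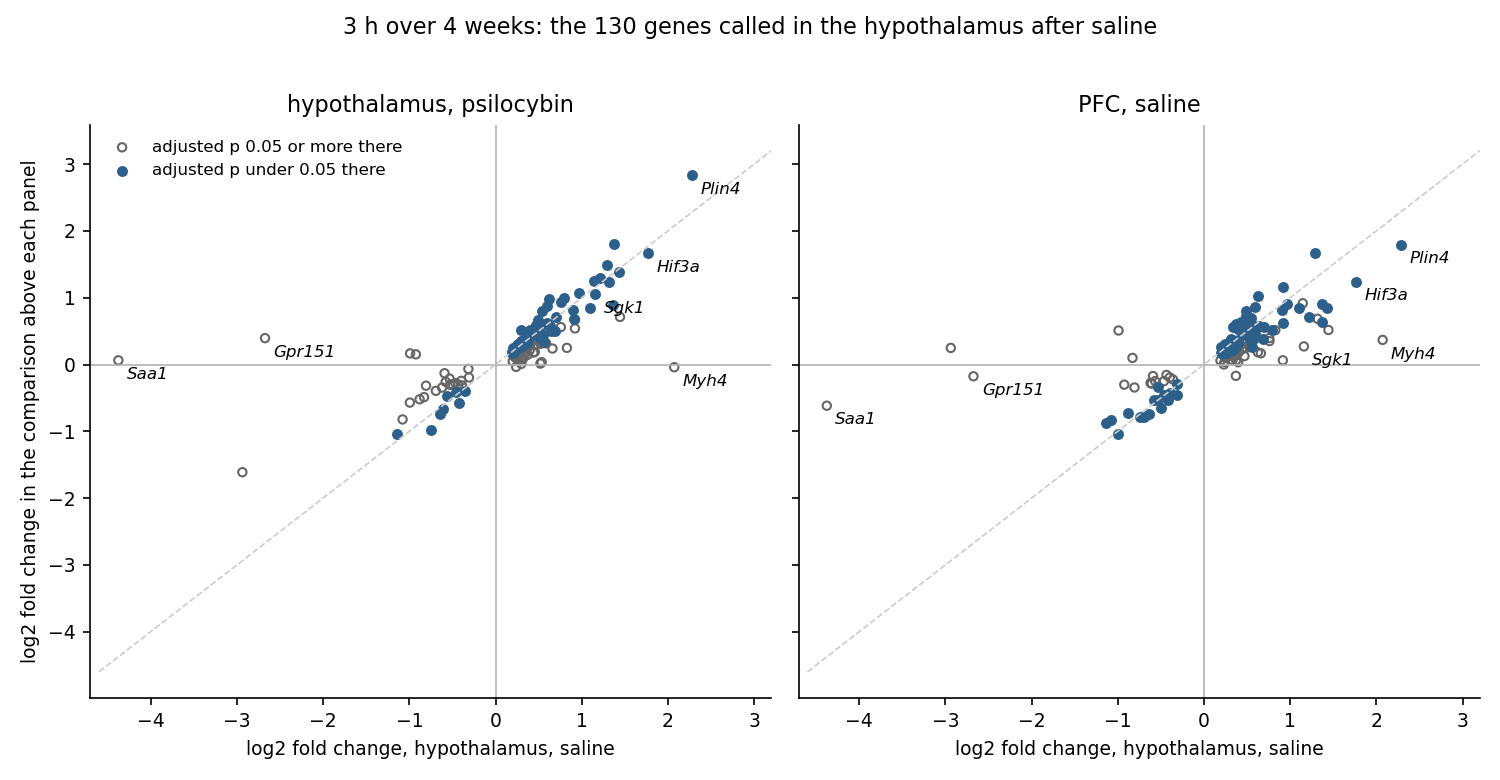
Log2 fold change at 3 h over 4 weeks of the 130 genes called in the hypothalamus after saline (horizontal axes) against the same contrast in the hypothalamus after psilocybin (left) and in the PFC after saline (right). Filled points are called there too, and the dashed line marks equal values. After psilocybin 97 of 99 higher and 27 of 31 lower genes keep their sign and in the PFC 98 and 28 do.

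The prefrontal cortex (PFC, frontal cortex in the labels) of the saline mice gave the same contrast in a second region. There, 453 genes were higher (2.39%) and 443 lower (2.34%) at 3 h. These libraries came from the same mice as those of the hypothalamus, except that replicate 2 at 3 h was used in the PFC and left out in the hypothalamus. Of the 99 genes higher in the hypothalamus, 98 were positive and 58 called higher in the PFC, and of the 31 lower genes, 28 were negative and 16 called lower. Among all genes tested, 49.2% had a positive log2 fold change in the PFC. Fkbp5 lay between 34.9 and 76.4 CPM in the PFC at 3 h and between 22.2 and 34.2 CPM at 4 weeks. Sgk1 lay between 51.0 and 72.4 CPM and between 44.6 and 54.9 CPM there, a log2 fold change of 0.27 ± 0.16 in the PFC against 1.16 ± 0.17 in the hypothalamus. The difference between regions was not called for Sgk1 (0.89 ± 0.23, edgeR adjusted p = 0.18). Immediate early genes were called higher in 18 of 37 cases in the PFC and in 2 of 37 in the hypothalamus by edgeR over all groups, a pair of counts whose difference was not tested.

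The interaction of time and region called 7 genes (0.0369%), namely Bhlhe40, Per2, Otub2, Ier5, Inka2, Alox12b and Foxb1. This edgeR fit has no term for the mouse, although both regions came from the same mice, and voom with the mouse as a block called 23 genes. Bhlhe40, a repressor that links the clock to neuronal activity, lay between 62.8 and 79.9 CPM at 3 h and between 68.3 and 87.0 CPM at 4 weeks in the hypothalamus. In the PFC it lay between 140 and 253 CPM and between 77.3 and 127 CPM. The time difference in the hypothalamus minus that in the PFC was -1.12 ± 0.15 on the log2 scale (edgeR adjusted p = 5.3e-06).

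Per2, a core clock repressor, lay between 23.6 and 29.2 CPM at 3 h and between 17.7 and 23.8 CPM at 4 weeks in the hypothalamus, and between 34.0 and 48.3 CPM and between 13.8 and 27.3 CPM in the PFC. Most 3 h values of Per2 thus lay above the 4-week values in the hypothalamus too, with a log2 fold change of 0.28 ± 0.11 that was not called. In 2 of 31 alternative settings this rise of Per2 was called. The difference of its time differences was -0.85 ± 0.16 (edgeR adjusted p = 0.012). Otub2, a deubiquitinase, and Ier5, an immediate early gene, were near level in the hypothalamus (log2 fold changes of 0.02 ± 0.08 and -0.14 ± 0.10, neither called) and higher at 3 h in the PFC (0.61 ± 0.08 and 0.59 ± 0.09, both called).

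Inka2 had a log2 fold change of -0.41 ± 0.12 in the hypothalamus, not called, and of 0.44 ± 0.11 in the PFC. In 3 of 31 alternative settings the fall of Inka2 in the hypothalamus was called. Alox12b, a lipoxygenase, was at medians of 0.326 CPM at 3 h and 0.567 CPM at 4 weeks in the hypothalamus, and of 6.98 and 4.74 CPM in the PFC. Its fall in the hypothalamus was called (edgeR adjusted p = 0.034), but not by DESeq2, nor without the 4 libraries that stood apart, nor without any 1 of replicates 1, 3, 4, 6 and 8 at 3 h and 3, 6 and 7 at 4 weeks. Foxb1, a transcription factor of the mammillary hypothalamus, had medians of 7.76 and 7.28 CPM in the hypothalamus and was at or below 0.297 CPM in each PFC library, so that its regional difference in time rests on a few reads.

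**Figure D5:**
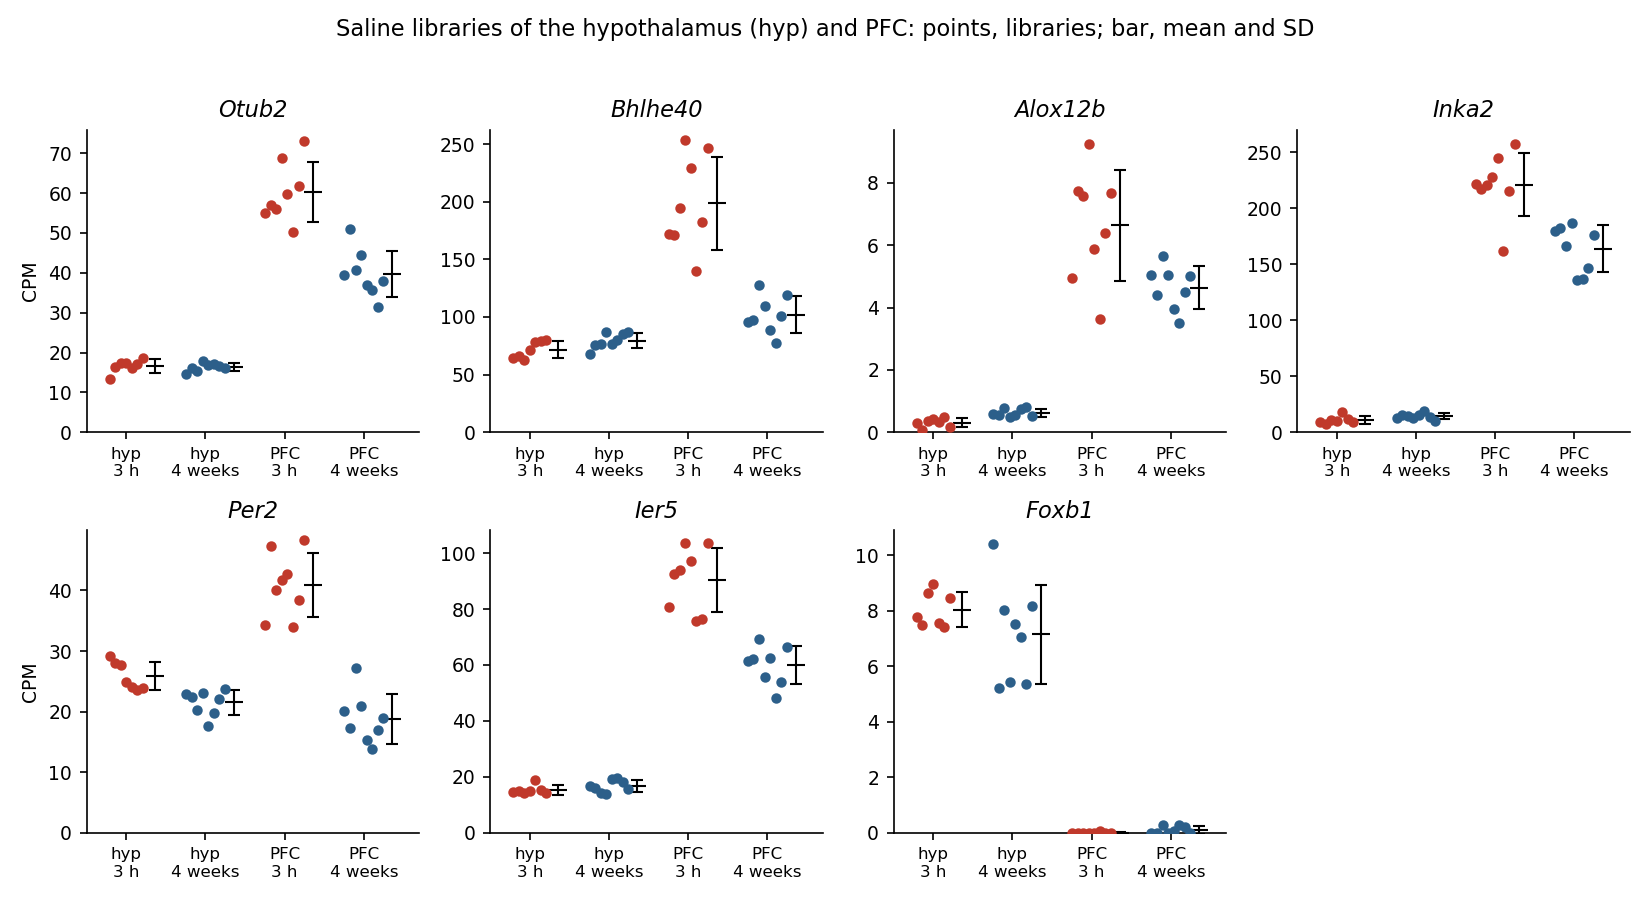
CPM (vertical axes, each from 0) of the 7 genes whose time difference was called as unequal between hypothalamus and PFC after saline, in libraries at 3 h (red) and 4 weeks (blue). Each point is 1 library, and bars give the mean and SD. The 3 h points of Bhlhe40, Per2, Otub2 and Ier5 lie mostly above the 4-week points in the PFC. In the hypothalamus those of Bhlhe40, Otub2 and Ier5 overlap them, and most of those of Per2 lie above.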

How the data were processed

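Reads were 52-bp paired-end from poly-A selected, stranded libraries. Per the study's methods, the authors aligned them to GRCm38 with STAR 2.7.2b and counted those with both ends on the same strand on GENCODE genes with featureCounts 1.6.2. The deposited values are whole-number counts per gene, not normalized or filtered, for 55401 genes, of which 55141 were matched to symbols of the reference annotation. Groups, extraction pools and cages were taken from the labels.

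Libraries with at least 1000000 counts were kept (62 of 64). From the counts, CPM with TMM factors and a robust quasi-likelihood fit over all groups with the extraction pool were computed in edgeR 4.0.16 (R 4.3.3) after filterByExpr (minimum count 10). Voom with quality weights and the mouse as a block (limma 3.58.1, consensus correlation 0.0282), after the study's methods, and DESeq2 1.42.0 were alternatives, beside those named in the closing section. Depth limits the precision of low counts. In simulated counts edgeR recovered 43 of 100 genes changed by 0.5 and 73 of 100 changed by 1 on the log2 scale, with 6 false calls among 18847 tested.

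The study's methods left out a further sample rich in wound healing genes, whose name is not given there, so the voom fit used other libraries than theirs. The replicate number is the cage number. Whether same-numbered mice of both time points shared a cage is not stated, so the block may not pair littermates or cagemates. Same-numbered libraries of both time points had deviations from the group means that correlated by 0.100 on average over 7 pairs, 3 of them above 0.1. No library was a copy of another of its group: of 49 replicate pairs compared by a chi-square of their counts, the lowest value per degree of freedom was 3.85.

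Named genes were the 10 called genes in each direction with the smallest p, the 3 with the largest fold at a mean of at least 1 CPM (leaving out predicted genes and pseudogenes), up to 6 called members of each gene list or else the member with the smallest p, the 3 genes with the smallest p of each interaction, and 12 fixed genes. A few list members and the other genes called in the region interaction were added after their values were seen. The members and the 22 gene lists and 15 marker lists were chosen with earlier results of these data known.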

Additional observations from a re-analysis of the deposited data

Results flagged for a closer look

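Of 176 groups of 7 or 8 values examined, 22 held a library farther from the others than Dixon's 95% limit allows, and chance alone flags about 1 group in 20. At 3 h, replicate 1 was lowest in Banp at 16.3 CPM (others 24.8 to 30.98) and highest in Saa1 at 0.517 CPM (others 0 to 0.187), and replicate 3 was highest in Trmt11 at 7.68 CPM (others up to 6.18). Replicate 4 was lowest in Cirbp at 51.2 CPM (others from 63.4). Replicate 7 was highest in Plin4 at 43.9 CPM (others up to 13.5) and in Hr at 108 CPM (others up to 74.4). Replicate 6 was highest in Inka2 at 17.8 CPM, Dbp at 41.5 CPM and Ier5 at 19 CPM, and its marker sums were 834 CPM for striatum and 155 CPM for choroid plexus.

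At 4 weeks, replicate 3 was highest in Sgk1 at 45.9 CPM (others up to 32.5), Fkbp5 at 32.9 CPM (others up to 29.5), Fos at 17.85 CPM (others up to 9.64) and Tph1 at 11.8 CPM (others up to 0.222), and its choroid plexus markers summed to 1350 CPM. Replicate 1 was lowest in Cables1 at 22.1 CPM, and its pituitary markers summed to 598 CPM. Replicate 4 was lowest in Xbp1 at 78.3 CPM, and replicate 2 in Cd38 at 15.1 CPM. Replicate 6 was highest in Saa1 at 26.1 CPM, and its striatum markers summed to 846 CPM.

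The difference in hypothalamus minus that in PFC, on the log2 scale, was called by edgeR for Bhlhe40 (-1.12), Per2 (-0.85), Otub2 (-0.59), Ier5 (-0.73), Inka2 (-0.85), Alox12b (-1.50) and Foxb1 (3.50).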

How the results depend on the processing

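The 130 called genes became 1120 with voom, 60 with no filter on low counts, 227 with an offset for GC content and length, 53 with all 64 libraries, 225 without replicate 5 of the psilocybin group at 4 weeks, 661 with the 15 libraries of the contrast alone, 11 in pool A, 84 in pool B and 25 at a Bonferroni threshold, and 56 without the 4 libraries apart in marker genes, an alternative chosen after seeing the data. Leaving out 1 library gave 67 to 119. With the replicate number (cage) as a block there were 105, and the block ended the calls of Lss, Lrrc29, Gpr151 and Saa1 among named genes and of no other. The 7 genes that differed between regions became 20 with DESeq2, 23 with voom, 2 with no filter, 17 with the offset, 26 with the offset and the replicate block, 2 with all 64 libraries, 16 without the psilocybin library and 4 at the Bonferroni threshold, and 6 to 9 without 1 of the 15 hypothalamus libraries (PFC libraries were not left out in turn). The interaction with treatment had 0 in each. The cause of these moves was not tested.

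Some log2 fold changes that were not called, and that of Saa1, changed sign. Avp was 0.069 with voom, 0.055 with no extraction pool, 0.030 with the replicate block, 0.14 in pool B, 0.38 without the 4 libraries and -0.18 to 0.14 without 1 library. Pomc was -0.0052 with no pool, -0.019 with the block, -0.018 with the offset, -0.050 with both, -0.0072 with the 15 libraries, -0.35 in pool B and -0.16 to 0.15 without 1 library. Otub2 was -0.0018 with at least 10 counts in every library, -0.041 in pool A and -0.0046 to 0.061 without 1 library. Tph1 was -3.05 to 0.12 without 1 library, positive only without replicate 3 at 4 weeks, and 0.39 without the 4 libraries, where Saa1 was 0.48. Low depth limits genes of few counts.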
